A study of Rattus norvegicus with 24 samples.

Results

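Heat shock proteins and folding chaperones were followed in skin explants of BN rats exposed to syngeneic or allogeneic lymphocytes. The group was defined by name: every probe whose gene name began with Hsp, Dnaj, Cct and a digit, Fkbp, Ppi and a letter from a to h, Pdia, Calr, Canx, Bag and a digit, Stip1 or Hsf. It held 57 of the 8453 probes on the array, which stand for 54 of 7263 genes, since *Hspa12a*, *Hspa12b* and *Hspa4l* had 2 probes each. Of these probes, 17 belonged to the HSP70 and HSP110 families, 8 to the J proteins, 8 to the prolyl isomerases, 7 to the small heat shock proteins, 4 to the chaperonins, 4 to the cochaperones, 4 to the heat shock factors, 3 to the protein disulfide isomerases and lectins of the endoplasmic reticulum (ER), and 2 to HSP90. One probe filed under an HSP70 name, Hspa5bp1, is now *Tmem132a* and not a chaperone of that family. It was kept because the rule goes by the name on the array.

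Explants came from 12 male BN rats aged 15 weeks. From each rat, 1 piece of skin was kept for 3 days with BN lymphocytes (the sample labeled syngeneic) and 1 with PVG lymphocytes (the sample labeled allogeneic), and both kinds of lymphocytes had first spent 7 days in a mixed lymphocyte reaction with irradiated BN splenocytes. PVG and BN rats differ at minor and major histocompatibility antigens, so the allogeneic pair models a graft versus host reaction in the dish. The explants hold skin cells together with the lymphocytes that entered or adhered, and no blood supply or lymph drainage. Both RNA samples of a rat were hybridized to the same 2-color array, and again to a second array with the dyes exchanged, which gave 24 arrays for 12 rats on 3 slides of 4 rats each.

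Chaperones bind proteins that are unfolded or still being made. HSP70 works in a cycle driven by J proteins, which deliver substrates, and by HSP110 and BAG proteins, which release the bound nucleotide. HSP90 takes over late folding steps with helpers such as the prolyl isomerases FKBP4 and PPID, small heat shock proteins hold unfolded proteins without using ATP, and the chaperonins enclose them. In the ER, HSPA5 (BiP), DNAJB9, DNAJC3, calreticulin and the disulfide isomerases serve secreted proteins. Heat shock factors drive many of the cytosolic and mitochondrial members through heat shock elements, and the unfolded protein response drives the ER members.

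Both elements could be read in the promoters of the members. RefSeq promoter windows of assembly GRCr8, which run from 250 bases before to 50 bases after the start of a gene, were found for 41 of the 54 symbols. The heat shock element was searched on both strands as 3 units, GAA, TTC and GAA, with 2 free bases between neighbors, and 6 of the 41 windows (14.6%) held it, against 267 of 33469 promoters (0.798%). The ER stress element, CCAAT and CCACG with 9 free bases between them, was present in 3 of the 41 (7.32%) and in 22 of all promoters (0.0657%). The windows of *Cct4* and *Dnaja1* matched the heat shock element after the start, and those of *Hspa8*, *Hspd1*, *Hspe1* and *Hsph1* before it. The matches of the ER members and of the HSP110 and chaperonin genes are shown because these genes are compared with each other in the results, with the matched bases in capitals. They are matches of letters and not measured binding sites.
*Hspa5*, GRCr8 chr3:38452963-38453001, plus strand, ER stress element: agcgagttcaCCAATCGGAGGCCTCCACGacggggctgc
*Calr*, GRCr8 chr19:40213125-40213163, plus strand, ER stress element: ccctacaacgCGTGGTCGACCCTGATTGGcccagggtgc
*Dnajc3*, GRCr8 chr15:102432524-102432562, plus strand, ER stress element: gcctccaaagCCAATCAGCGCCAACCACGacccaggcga
*Hsph1*, GRCr8 chr12:10427322-10427354, plus strand, heat shock element: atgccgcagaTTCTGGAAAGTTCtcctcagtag
*Hspe1*, GRCr8 chr9:64084252-64084289, plus strand, heat shock elements: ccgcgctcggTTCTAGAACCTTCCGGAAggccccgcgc
*Hspd1*, GRCr8 chr9:64084252-64084287, minus strand, heat shock elements: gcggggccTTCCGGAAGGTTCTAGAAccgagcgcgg
The *Hspd1* and *Hspe1* lines are the same stretch read on its 2 strands, so that these partner chaperonin genes had their matches in common. The short window of *Hspa1a* held no match, which says nothing about the factor.

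Signal was well above background in both dyes on every one of the 24 arrays for 55 of the 57 probes. The exceptions were *Hspa1b*, above background on 2 arrays in the allogeneic and 3 in the syngeneic sample, and *Hsfy2* (named Hsfy1 on the array), so that neither gave a usable level. *Hspa1a* and *Hspa1b* encode nearly identical proteins, and a probe for one can take up transcript of the other. Values are log2 ratios of the allogeneic over the syngeneic sample as the dye labels give them. The signs run opposite to those in the tables of the study, and with the other direction every sign below would turn. The study's qRT-PCR on a subset of these sample pairs also gave *Aif1* as higher in the allogeneic explants. By the dye labels *Aif1* was at -1.27 here. One array of rat 10 was far brighter than the rest (median intensity 6668 in Cy3 and 25642 in Cy5, against medians over the 24 arrays of 179 and 353), and levels of single samples are therefore given without rat 10. The ratios of rat 10 were kept, although its arrays had the lowest correlation with each other over all probes (r = 0.13). The lowest ratios of *Hspa1a*, *Bag3* and *Hspa5* below are those of rat 10.

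Rat 8 stood apart. In the other 11 rats, log2 ratios correlated between rats with r from 0.28 to 0.82 across all probes, whereas rat 8 reached at most 0.24 with any of them. No chaperone probe exceeded a log2 ratio of 1 in another rat, but 20 of 57 (35.1%) did so in rat 8, against 964 of 8453 probes overall (11.4%). The SD over the chaperone probes was 1.06 in rat 8 and 0.19 to 0.26 in the others. Both arrays of rat 8 gave this picture, with r = 0.96 between them over the 57 probes. The counts of calls below are therefore given for 12 rats and for the 11 without rat 8.

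**Figure D1:**
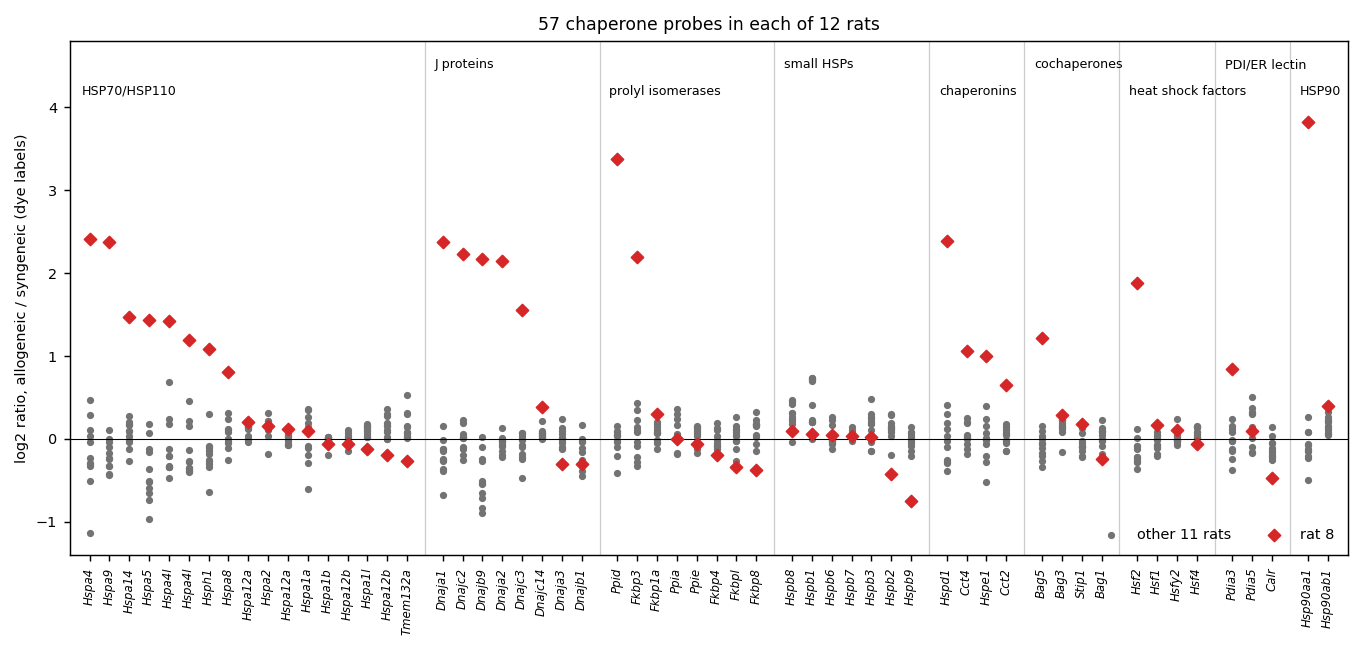
Log2 ratio (allogeneic over syngeneic, y axis) of each of the 57 chaperone probes (x axis, grouped by role) in 12 rats. Grey points are the 11 other rats, and red diamonds are rat 8, where 20 probes lie above 1.

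With all 12 rats, 9 of the 57 chaperone probes passed an adjusted p of 0.05 (limma, Benjamini-Hochberg over 8453 probes), which is 15.8% and close to the 17.3% of all probes. Higher in the allogeneic sample were 7 (12.3%, against 8.78% of all probes), namely *Hspb1*, *Hspb8*, *Hsp90ab1*, *Bag3*, *Hspa2*, *Hspa1l* and 1 of 2 probes of *Hspa12a*. Lower were 2 (3.51%, against 8.48%), *Dnajb1* and *Calr*. Before adjustment, 17 had a p under 0.05. The median over the 57 probes was 0.04 and that over all probes 0.01.

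Without rat 8, 21 of the 57 passed (36.8%, against 24.7% of all probes). All 9 probes called with 12 rats were among them with their sign kept. Higher were 13 (22.8%, against 12.5%), with 1 of 2 probes of *Hspa12b*, *Hspb2*, *Hsf4*, *Dnajc14*, *Fkbp8* and *Tmem132a* added. Lower were 8 (14%, against 12.2%), with *Hspa5*, *Dnajb9*, *Dnaja1*, *Hspa9*, *Hsph1* and *Hsf2* added. These 6 had log2 ratios from 1.09 to 2.38 in rat 8 and means from -0.48 to -0.16 in the other 11 rats. The medians were 0.02 over the chaperone probes and 0.01 over all probes.

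**Figure D2:**
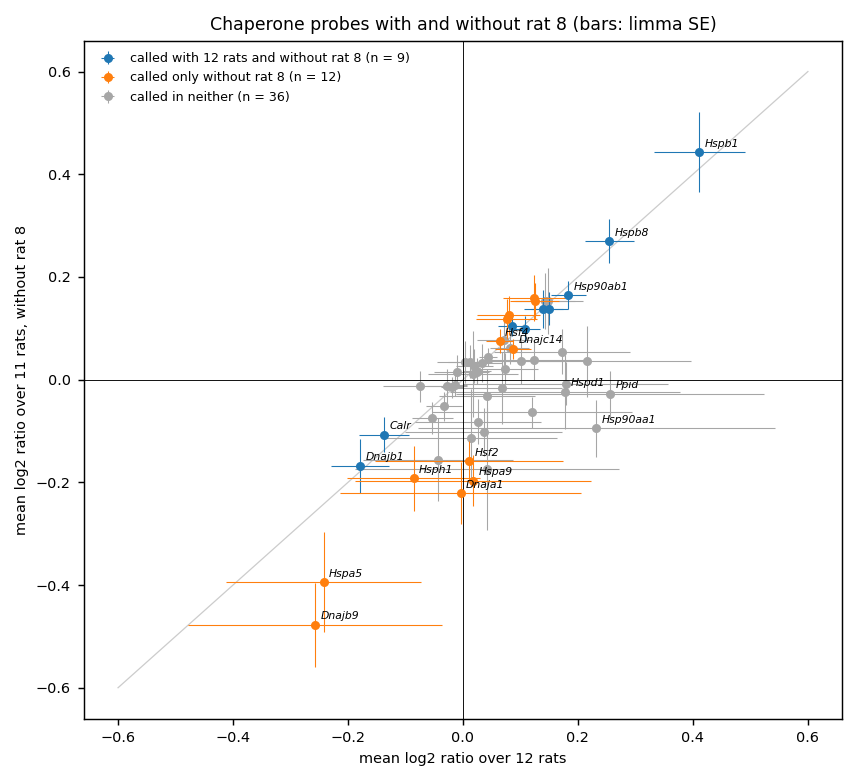
Mean log2 ratio of each chaperone probe over 12 rats (x axis) and over 11 rats without rat 8 (y axis), with limma standard errors as bars and colors for the calls at an adjusted p of 0.05. *Hspb1* and *Hspb8* lie close to the diagonal, while *Dnajb9*, *Hspa5*, *Dnaja1* and *Hspa9* lie below it and *Hsp90aa1* and *Ppid* change sign.

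Small heat shock proteins held the largest increase. *Hspb1* (HSP27), which guards actin filaments and is abundant in the epidermis, had log2 ratios from 0.0015 to 0.73 with a median of 0.32, above 0 in 12 of 12 rats. Its mean was 0.41 ± 0.29 (SD, n = 12), a 1.33-fold higher signal (adjusted p = 0.00364 by limma). The means of slides 1 to 3 were 0.34, 0.31 and 0.59. Both dye orientations showed it, at 0.33 with the allogeneic sample in Cy5 and 0.50 with it in Cy3, and orientations are given in this order throughout. With median centring in place of loess the mean was 0.30 and did not pass (adjusted p = 0.0950).

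*Hspb8* forms a complex with BAG3 that hands misfolded proteins to autophagy. Its log2 ratios ran from -0.03 to 0.47 with a median of 0.25 and were above 0 in 11 of 12 rats. The mean of 0.25 ± 0.15 (SD, n = 12) was past the threshold (adjusted p = 0.00147 by limma). The arrays with the allogeneic sample in Cy5 gave 0.01 and those with it in Cy3 gave 0.50, so the size of the change differed between orientations. *Hspb2*, a small heat shock protein of muscle, was at 0.08 ± 0.20 with 12 rats and at 0.12 ± 0.13 (SD, n = 11) without rat 8, where it passed (adjusted p = 0.0284 by limma), a call that held in 5 of 11 fits without a further rat. *Hspb3*, *Hspb6*, *Hspb7* and *Hspb9* were called in neither, with means between -0.07 and 0.14 over 12 rats.

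Of the cochaperones, *Bag3* rose. This nucleotide exchange factor of HSP70 had log2 ratios from -0.16 to 0.28 with a median of 0.17, above 0 in 11 of 12 rats. The mean was 0.15 ± 0.11 (SD, n = 12; adjusted p = 0.00596 by limma), and here too the orientations differed, at 0.02 and 0.29. It was 0.06 and did not pass with median centring (adjusted p = 0.560). *Bag1*, *Bag5* and *Stip1* (HOP, which joins HSP70 to HSP90) had means from -0.05 to 0.03 and did not pass.

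Both HSP90 genes of the cytosol were measured, and 1 of them rose. *Hsp90ab1*, the constitutive form, ranged from 0.05 to 0.39 with a median of 0.18, above 0 in 12 of 12 rats. Its mean was 0.18 ± 0.11 (SD, n = 12), a 1.14-fold higher signal (adjusted p = 0.00157 by limma). Slide means were 0.18, 0.20 and 0.17, while the orientations gave 0.04 and 0.32, and median centring gave 0.06 (adjusted p = 0.490). *Hsp90aa1*, the inducible form, ran from -0.50 to 0.27 in 11 rats and reached 3.82 in rat 8. Its mean moved from 0.23 ± 1.15 with 12 rats (adjusted p = 0.669) to -0.09 ± 0.20 (SD, n = 11) without rat 8 (adjusted p = 0.253 by limma), lower in 8 of 11 rats.

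HSP70 genes were spread on either side of 0. *Hspa1a*, the stress-inducible HSP70 encoded in the MHC, had log2 ratios from -0.61 to 0.36 with a median of 0.10, above 0 in 7 of 12 rats. Its mean of 0.02 ± 0.29 (SD, n = 12) was far inside its spread (adjusted p = 0.908 by limma), as was that of 0.01 ± 0.30 without rat 8. Its neighbor in the MHC, *Hspa1l*, known mainly from testis, changed little but evenly: from -0.12 in rat 8 to 0.18, with a median of 0.10. The mean was 0.09 ± 0.08 (SD, n = 12; adjusted p = 0.0313 by limma), a 1.06-fold difference, and 0.10 ± 0.06 without rat 8, above 0 in 11 of 11 rats (adjusted p = 0.00189). With 12 rats the call did not survive the removal of rat 1, 4, 5, 6, 9, 10, 11 or 12 (adjusted p from 0.0520 to 0.0693). *Hspa1l* signal was also low. Its normalized log2 intensity was 7.29 to 7.57 in the allogeneic samples of 10 rats (without rats 8 and 10). *Hspa1a* was at 14.2 to 14.9 there and *Hspa1b*, not usable, at 6.28 to 6.67.

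*Hspa2*, another HSP70 with a role in sperm formation, rose by 0.14 ± 0.12 (SD, n = 12; adjusted p = 0.0136 by limma) in 11 of 12 rats, but did not pass the exact signed-rank test (adjusted p = 0.0700). *Hspa12a* and *Hspa12b* are distant HSP70 relatives, the second of them known from endothelium. The *Hspa12a* probes gave 0.11 ± 0.09 (adjusted p = 0.0121) and 0.02 ± 0.07 (adjusted p = 0.507), and their mean per rat was 0.07 ± 0.06 (adjusted p = 0.0374 by limma over 7263 genes). The *Hspa12b* probes gave 0.12 ± 0.15 (adjusted p = 0.0664), which became 0.15 ± 0.12 without rat 8 (adjusted p = 0.00797), and -0.01 ± 0.07 (adjusted p = 0.702). Without rat 8 the first of them had opposite signs in the 2 orientations, -0.03 in the lower and 0.33 in the higher. Of the 2 probes of each gene, 1 passed (that of *Hspa12b* without rat 8 alone). Of the abundant forms, *Hspa8* was at 0.10 ± 0.27 (adjusted p = 0.394 by limma) and without rat 8 at 0.04 ± 0.16 (adjusted p = 0.604). The mitochondrial *Hspa9* was at 0.02 ± 0.76 with 12 rats and at -0.20 ± 0.18 without rat 8, lower in 10 of 11 rats (adjusted p = 0.0118). Its orientations without rat 8 were at -0.04 and -0.35.

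Without rat 8, the ER members *Hspa5*, *Dnajb9* and *Calr* fell. *Hspa5* (BiP), the main chaperone of the ER, ran from -0.97 to 0.18 in 11 rats and was 1.43 in rat 8. The 12-rat mean was -0.24 ± 0.63 (adjusted p = 0.374 by limma), and without rat 8 it was -0.39 ± 0.35 (SD, n = 11), a 1.31-fold lower signal in 9 of 11 rats (adjusted p = 0.0110). The 3 slides gave -0.18, -0.23 (without rat 8) and -0.73. Both orientations were below 0 without rat 8, at -0.48 and -0.31.

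*Dnajb9*, the ER J protein that works on BiP, was the largest decrease without rat 8. It ran from -0.90 to 0.02 in 11 rats, with 10 below 0, and was 2.17 in rat 8. The mean without rat 8 was -0.48 ± 0.30 (SD, n = 11), a 1.39-fold lower signal (adjusted p = 0.00131 by limma), at -0.47 and -0.49 in the orientations. *Dnajb9* and *Hspa5* kept their call in each of the 20 other fits made without rat 8. All of these fits leave out rat 8, which was set apart for its ratios, so they cannot test that choice. With 12 rats neither was called, and *Dnajb9* was at -0.26 ± 0.81 (adjusted p = 0.480 by limma). *Calr*, the calcium-binding lectin, was called with 12 rats at -0.14 ± 0.16 (adjusted p = 0.0445) and without rat 8 at -0.11 ± 0.12 (adjusted p = 0.0387 by limma). The call was weak: the orientations had opposite signs, -0.37 and 0.10, and leaving out rat 1, 2, 3, 4, 5, 7, 9, 11 or 12 lifted the adjusted p to between 0.0553 and 0.0890. *Dnajc3*, at -0.10 ± 0.17, *Pdia3*, at -0.03 ± 0.18, and *Pdia5*, at 0.15 ± 0.23, did not pass without rat 8, nor with 12 rats (0.04, 0.04 and 0.15).

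Among the cytosolic J proteins, *Dnajb1* (HSP40), which starts the HSP70 cycle on stressed proteins, ran from -0.45 to 0.17 with a median of -0.21, below 0 in 11 of 12 rats. The mean was -0.18 ± 0.18 (SD, n = 12; adjusted p = 0.0274 by limma), with both orientations below 0 at -0.16 and -0.20. The call was lost without rat 1, 3, 9, 10 or 11 (adjusted p from 0.0514 to 0.0613), and slide 2 without rat 8 gave 0.02. *Dnaja1* was called lower without rat 8, at -0.22 ± 0.21 (SD, n = 11; adjusted p = 0.0175), but its orientations disagreed at 0.09 and -0.53. *Dnajc14* was higher by 0.06 ± 0.06 without rat 8 (adjusted p = 0.0449 by limma), again with opposite signs at -0.06 and 0.18, and the call held in 3 of 11 fits without a further rat.

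*Hsph1* (HSP110) was at -0.19 ± 0.23 without rat 8 (SD, n = 11; adjusted p = 0.0426 by limma), below 0 in 10 of 11 rats. That call held in 1 of the 11 fits that left out a further rat. None of the 4 chaperonin probes (*Cct2*, *Cct4*, *Hspd1*, *Hspe1*) passed in either fit, and their means without rat 8 lay between -0.02 and 0.04. *Hspd1* (HSP60), the mitochondrial chaperonin, ran from -0.39 to 0.41 in 11 rats, split 5 above and 6 below 0, with 2.39 in rat 8. *Hspe1*, its lid, which had the promoter stretch in common with it, ran from -0.52 to 0.40 with 1.00 in rat 8.

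No prolyl isomerase passed with 12 rats. *Ppid* (cyclophilin 40), a partner of HSP90, ran from -0.41 to 0.15 in 11 rats and was 3.37 in rat 8. Its mean went from 0.26 ± 0.99 (adjusted p = 0.572) to -0.03 ± 0.16 (SD, n = 11) without rat 8 (adjusted p = 0.709 by limma). Of the 8 probes, *Fkbp8*, which sits on mitochondria, passed without rat 8 at 0.12 ± 0.14 (adjusted p = 0.0436), although the orientations gave -0.33 and 0.57 and the call held in 3 of 11 fits without a further rat.

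Of the heat shock factors, *Hsf1*, the main stress factor, was at -0.03 ± 0.11 with 12 rats (adjusted p = 0.524 by limma). *Hsf2* was lower by 0.16 on the log2 scale without rat 8 (mean -0.16 ± 0.14, SD, n = 11; adjusted p = 0.0128), with its orientations at 0.10 and -0.42. *Hsf4*, best known from the lens, was at 0.06 ± 0.08 with 12 rats (adjusted p = 0.0848) and at 0.07 ± 0.07 without rat 8 (adjusted p = 0.0308 by limma), where 5 of 11 fits without a further rat kept the call.

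The large ratios of rat 8 went with low levels in its sample labeled syngeneic. There the *Hsp90aa1* level, as normalized log2 intensity, was 10.7, against 14.2 to 14.6 in the syngeneic samples of 10 other rats. The level in the allogeneic sample of rat 8 was 14.6, against 14.1 to 14.5. *Ppid* was at 9.96 in the syngeneic sample of rat 8, against 12.8 to 13.1 in the other rats. Over the 20 probes above 1, the syngeneic level of rat 8 differed from the median of the 10 rats by -3.62 to -0.67 (median -1.96), and the allogeneic level by -0.62 to 0.49 (median 0.19).

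**Figure D3:**
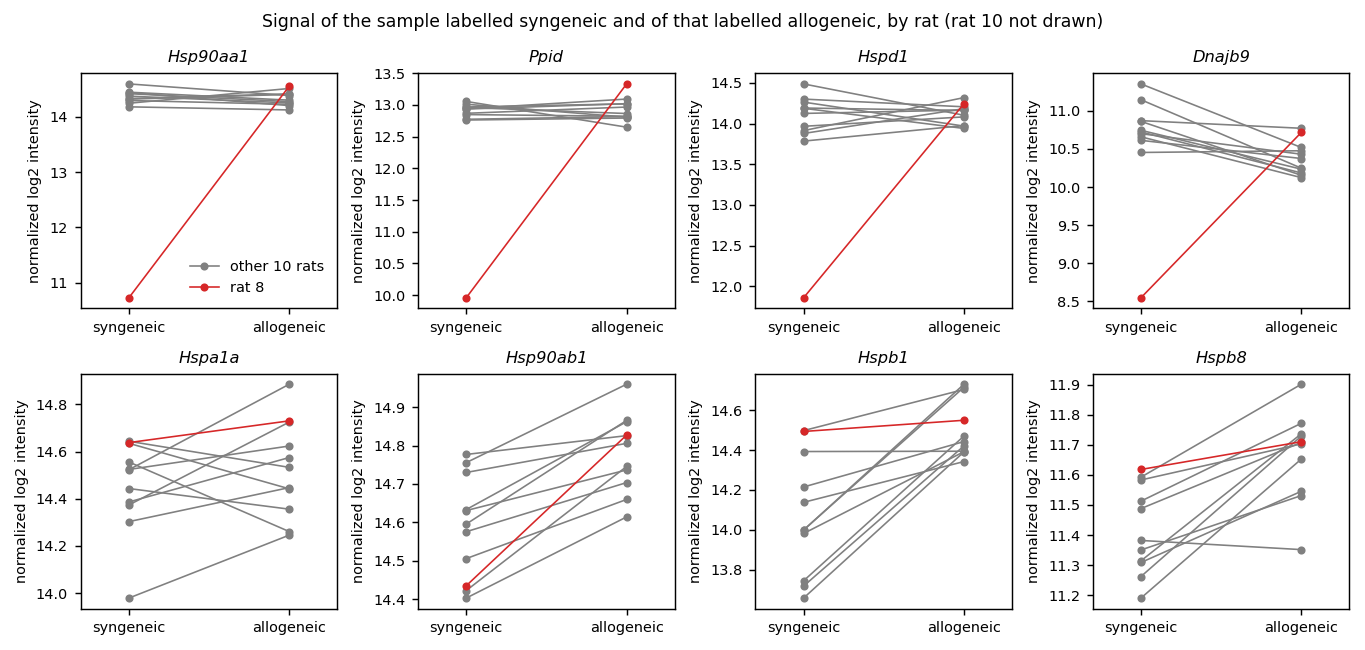
Normalized log2 intensity (y axis) in the sample labeled syngeneic and in that labeled allogeneic, joined for each rat, for 8 chaperones, with rat 8 in red, 10 other rats in grey and rat 10 not drawn. In rat 8 the syngeneic sample is low for *Hsp90aa1*, *Ppid*, *Hspd1* and *Dnajb9* and lies within the range of the other rats for *Hspa1a*, *Hsp90ab1* and *Hspb1* and just above it for *Hspb8* (11.6 in rat 8).

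By log2 ratio, *Hsp90aa1* ranked 6th and *Ppid* 14th of all probes in rat 8. They were followed among the chaperones by *Hspa4* (2.41), *Hspd1* (2.39), *Dnaja1* (2.38), *Hspa9* (2.37), *Dnajc2* (2.23), *Fkbp3* (2.19), *Dnajb9* (2.17) and *Dnaja2* (2.15). The probes of *Hspa1a* (0.09), *Hspb1* (0.06), *Bag3* (0.28) and *Dnajb1* (-0.30) were below 1 in rat 8. By role, 7 of 17 HSP70 and HSP110 probes, 5 of 8 J proteins, 3 of 4 chaperonins and 0 of 7 small heat shock proteins exceeded 1. Just inside that limit were *Hspe1* at 1.00 and *Cct4* at 1.06, and just outside it *Pdia3* at 0.84 and *Hspa8* at 0.80.

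Base composition of the probes moved with this result. The probes are 60 bases long, and the 20 chaperone probes above 1 in rat 8 held 35% to 45% G and C, against 30% to 60% for the other 37. Over the 57 probes the correlation of the rat 8 ratio with G and C content was r = -0.54, and over all 8453 probes it was -0.28. In the other rats these values ran from -0.11 to 0.41 and from -0.18 to 0.07. These are descriptions across probes that were hybridized together. The first 30 bases of 7 chosen probes are shown, with G and C in capitals. *Hsp90aa1*, *Ppid* and *Dnaja1* had some of the highest ratios in rat 8. The others lay nearer 0 and not at the low end, where *Hspb9* was at -0.75.
*Hsp90aa1*, 3.82 in rat 8: ttGtaaGaCGtaatGtaaCCtaCtGttaCt
*Ppid*, 3.37 in rat 8: attGtttaCataGCaGtGCtGaCatCGGtt
*Dnaja1*, 2.38 in rat 8: aaatGCCCtaGCatCtGttaGGCCatatCt
*Hsp90ab1*, 0.39 in rat 8: CtGCGGGaCaaCtCGaCaatGGGCtaCatG
*Hspb8*, 0.09 in rat 8: aaGaaGGtGGGattGtCtCCaaGaaCttCa
*Hspb1*, 0.06 in rat 8: GGatGaaCatGGCtaCatCtCtCGGtGCtt
*Hspa1a*, 0.09 in rat 8: CtCGtGGGttttttatatattCaaattaaG
The *Hsp90aa1* and *Ppid* probes have 36.7% and 35% G and C and the *Hsp90ab1* and *Hspb1* probes 51.7% and 55%. The *Hspa1a* probe goes against this order, with the lowest share of the 57, 30%, and a ratio near 0. It was not alone: *Dnajb1* (36.7%, -0.30) and *Bag1* (40%, -0.25) were also below 0, while 15 of 25 chaperone probes under 45% exceeded 1.

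Within bands of base composition the chaperones had the higher share in 2 of 3. Of probes under 45% G and C, 15 of 25 chaperone probes (60%) exceeded 1 in rat 8, against 16.5% of all probes in that band. From 45% to under 50% it was 5 of 18 (27.8%) against 10.7%, and at 50% or more 0 of 14 against 1.11%. Cell type markers moved in rat 8 as well. Both keratinocyte probes, *Perp* (2.71) and *Tp63* (2.44), and the fibroblast probe *Pdgfra* (1.77) exceeded 1, whereas no T cell, macrophage, NK cell, B cell, endothelial or muscle probe did. Macrophage markers went the other way in rat 8, with a median of -0.96 over 9 probes and *Ctss* at -1.72. Within that list *Cd163* (0.10) and *Cd14* (0.08) were above 0. Without rat 8 the macrophage median was also below 0, at -0.41, with *Ctss* at -1.37. In rat 8 the medians were -0.55 for T cells and -0.97 for the 2 muscle probes, against -0.25 and 0.03 without rat 8. The part of base composition, signal strength or cell content in the pattern of rat 8 was not tested.

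**Figure D4:**
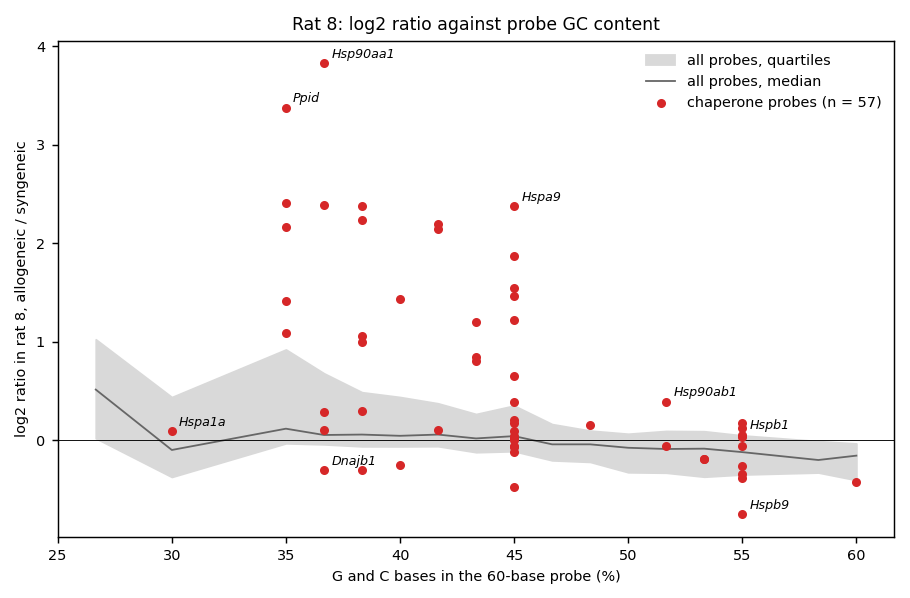
Log2 ratio in rat 8 (y axis) against the share of G and C in the 60-base probe (x axis, percent), with chaperone probes in red and the median and quartiles of all probes in grey for shares held by at least 20 probes. The chaperone probes above 1 lie between 35% and 45%, and *Hspa1a* at 30% lies near 0.

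Markers of cell types were read for the same samples, since in whole explants fewer cells of a type and less RNA per cell cannot be told apart. Their directions are by the dye labels and would turn with those of the study's tables, where *Ctss* and *Aif1* were higher in the allogeneic explants. With 12 rats, 8.48% of all probes on the array were called lower and 8.78% higher. T cell markers were lower in the allogeneic sample for 5 of 10 probes and higher for 0 (median -0.29), with a mean level of 7.57 to 8.16 in the allogeneic and 7.85 to 8.72 in the syngeneic samples of 10 rats, and 9 of the 10 probes were above background. Macrophage markers were lower for 6 of 9 probes (median -0.44; 9.76 to 10.3 against 9.94 to 11.0). NK cell markers were lower for 4 of 7 (median -0.12; 7.05 to 7.28 against 7.17 to 7.98), and none of 4 B cell probes passed (6.71 to 7.90 against 6.85 to 7.50). Of the skin cells, *Perp* (keratinocytes) and *Col1a2* (fibroblasts) rose by 0.69 and 0.55, as 1 of 2 probes in each list (14.5 to 15.6 against 14.2 to 15.4, and 12.6 to 13.7 against 12.0 to 13.3). Endothelial markers rose for 3 of 6 probes (10.4 to 11.2 against 10.4 to 10.8), among them both probes of *Cdh5* at 0.28 and 0.38, and 0 of 2 muscle probes passed (8.75 to 12.8 against 8.86 to 11.5). The skin markers on the array were few but well above background. Without rat 8 the counts in these lists were the same, except that 5 NK cell probes were lower and both fibroblast probes higher. Of all probes, 12.2% were then lower and 12.5% higher. The rise of *Hspb1*, *Hspb8* and *Bag3* stood beside these shifts, and the part of cell content in it was not tested.

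Genes of the unfolded protein response outside the group were read beside *Hspa5* and *Dnajb9*, again with directions by the dye labels. On the array were 15 probes of 14 genes from a list of 25. With 12 rats 7 fell and 0 rose (median -0.13), where 8.48% of all probes were lower, and 8 did not pass. Without rat 8, 8 fell and 0 rose (median -0.18), where 12.2% of all probes were lower, and 7 did not pass. *Herpud1*, which serves ER-associated degradation, was at -0.27 ± 0.05 (SD, n = 12) in 12 of 12 rats (adjusted p = 3.51e-06 by limma). *Trib3*, a late target of the response, was at -0.54 ± 0.28 in 12 of 12 rats (adjusted p = 4.60e-04). *Hyou1*, an ER relative of HSP110, fell by 0.24 on the log2 scale (-0.24 ± 0.20, adjusted p = 0.0107 by limma), and *Atf6* (-0.21), *Atf4* (-0.32), *Ddit3* (-0.38) and *Ppp1r15b* (-0.23) made up the rest. *Trib3*, *Atf4*, *Ddit3* and *Ppp1r15b* also belong to the integrated stress response.

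Of acute stress genes, 16 probes of 13 genes were measured, of which 7 fell and 1 rose with 12 rats (median -0.25; 8.48% and 8.78% of all probes) and 9 fell and 1 rose without rat 8 (median -0.26; 12.2% and 12.5%). *Hmox1*, the heme oxygenase, was lowest at -0.74 ± 0.37 (SD, n = 12) in 12 of 12 rats (adjusted p = 4.13e-04 by limma). *Egr1*, an immediate early gene, rose by 0.49 ± 0.21 in 12 of 12 rats (adjusted p = 1.52e-04). *Ier3*, *Dusp1*, 2 of 3 probes of *Sqstm1* and both of *Txnrd1* also fell. These directions are by the dye labels, and the study reported *Ier3* as higher in the allogeneic explants. Among 15 probes of 14 other chaperones and cofactors, 2 rose and 1 fell with 12 rats (8.78% and 8.48% of all probes). Without rat 8, 4 rose and 1 fell (12.5% and 12.2% of all probes). With 12 rats, *Clu* (clusterin, a secreted chaperone) rose by 0.48 ± 0.27 in 12 of 12 rats (adjusted p = 8.68e-04 by limma), *Pfdn5*, a prefoldin subunit, rose by 0.16 ± 0.10 (adjusted p = 0.00258) and *Tor1a* fell by 0.15 on the log2 scale (adjusted p = 0.00671). *Hsp90b1* (GRP94), the HSP90 of the ER, was listed under the old name Tra1 and so outside the group, with 0.25 ± 0.69 (adjusted p = 0.409), 2.39 in rat 8 and 0.06 ± 0.18 without rat 8 (adjusted p = 0.448 by limma).

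*Hspa1a* was set against 11 other chaperones for their ratios from rat to rat, 1 of which, *Hspa1b*, gave no usable level. No pair passed after adjustment over the 11. The strongest was *Bag3*, with Pearson r = 0.71 (n = 12, permutation p = 0.0145, adjusted p = 0.159) and Spearman rho = 0.45 (permutation p = 0.15, adjusted p = 0.887). Without rats 4 and 10, the farthest from the median of *Hspa1a*, r was 0.15, so that the relation rested on those rats. Without rat 8 it was 0.73 (adjusted p = 0.142).

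Both dye orientations were compared for each probe. Over the 57 probes, the mean had the same sign in both orientations for 33, and for 8 of the 9 called with 12 rats, the exception being *Calr*. All 9 had the same sign on all 3 slides, as did 20 of the 21 called without rat 8. Of those 21, *Fkbp8*, *Calr*, *Dnaja1*, *Hsf2*, *Dnajc14* and the *Hspa12b* probe had opposite signs in the 2 orientations. In rats other than rat 8, r between the 2 arrays over the chaperone probes ran from -0.01 to 0.48.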

How the data were processed

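Two-color arrays compared 2 skin explants of each of 12 rats, with dyes exchanged on a second array. The authors deposited scanner output of each array from Agilent's Feature Extraction software, with mean spot intensity and local background in each dye, and a series table of log2 ratios, which correlated with the allogeneic over syngeneic processed log ratio on all 24 arrays (r from 0.707 to 0.955), so its columns were already turned. Scale and centring of that table are otherwise not given in the sources used here. Array column medians lay between -0.027 and 0.022.

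Mean intensities were corrected by normexp (offset 50) and normalized by loess within arrays in limma 3.58.1 (R 4.3.3). Control and outlier spots were left out. After the swapped arrays had been turned, replicate spots and then both arrays of a rat were averaged, and means over rats tested against 0 by limma, with Benjamini-Hochberg adjustment over 8453 probes. Levels of single samples were taken after quantile scaling of the mean log intensity. The 2 samples of a rat share an array, so the comparison is paired by rat through the ratio. The slides, 4 rats each, were the only batch tested.

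Names were updated through RefSeq, for 40 chaperone probes by accession, 16 by symbol and 1 by synonym. Named genes were *Hspa1a*, *Hspa1b*, *Hspa1l*, *Hsp90aa1*, *Ppid*, the called probes (up to 12 in each direction) and the largest change in each role, and others were named after their values were seen. Members and lists were chosen with earlier results of these data known. The fit was tested on simulated data. Sequences are from the array files and RefSeq (GRCr8).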

Additional observations from a re-analysis of the deposited data

How the results depend on the processing

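With 12 rats, 9 chaperone probes passed (7 higher, 2 lower). The median over the chaperone probes moved by less than its spread between rats under every alternative. Leaving out single rats gave 6 to 21 calls (6 to 13 higher, 0 to 8 lower), with 21, 13 and 8 of them without rat 8, and 6 to 9 calls otherwise. Over all 8453 probes these fits gave 2087 calls without rat 8 and 1155 to 1409 otherwise. No chaperone probe was called lower without rat 1, 3, 9 or 11. The count of lower probes was 1 without background correction, with processed signals (11 higher), median centring, the series table, the slide as a block, the ordinary variance and the replicate block (24 arrays, pairing by rat). Allogeneic in Cy5 alone gave 5 higher and 7 lower, and in Cy3 alone 19 higher of 21. Of all 8453 probes, 1446 were higher and 1213 lower in Cy5 alone, and 1264 and 1236 in Cy3 alone. Alternatives chosen after seeing the data gave 20 chaperone calls with weights for rats (14 higher, 6 lower) and 17 without rats 8 and 10 (11 higher, 6 lower). Over all probes they gave 2325 and 2134 calls. With the weights, *Dnaja1*, *Hspa9* and *Hsf2* were not called. Without rat 8, the 21 calls (13 higher, 8 lower) became 35 (23 higher) in Cy3 alone, and 7 were higher in Cy5 alone. Removing a further rat left 14 to 22, with 5 to 10 lower and 5 without rat 3, 4 or 11. Counts over all probes are not given here for these alternatives without rat 8. With 12 rats, a single orientation raised the calls over all probes as well, to 2500 in Cy3 alone and 2659 in Cy5 alone, against 1459.

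*Hspa1a* was at -0.11 with median centring and -0.011 in Cy3 alone, and -0.014 to 0.074 with single rats left out. *Hspa1b* turned to 0.0093 in the series table and 0.0030 without rats 8 and 10. *Hsp90aa1* ranged from -0.095 (without rat 8) to 0.30, *Ppid* from -0.028 to 0.32 and *Hspd1* from -0.023 to 0.23 with single rats left out. With rat weights they were at -0.056, -0.011 and -0.0065, and without rats 8 and 10 *Hsp90aa1* was at -0.054 and *Ppid* at -0.027. *Calr* was at 0.096 in Cy3 alone, and its call was lost in 7 other planned fits, the replicate block among them. Cy5 alone ended the calls of *Hspb8*, *Hsp90ab1*, *Bag3* and *Hspa2*, and Cy3 alone that of 1 *Hspa12a* probe. The causes were not tested.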
